A study of Mus musculus with 12 samples.

Results

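The acid-sensing ion channel (ASIC) genes Asic1, Asic2, Asic3 and Asic4 were followed in the RNA of fetal mouse testes with and without Nr2f2. The 4 genes are the lines of the count table that carry these symbols, out of 24470 genes. Asic4 was chosen by its measured rise in the knockout, so its difference between genotypes is given as a description with no test, and the other members were taken because they belong to the same channel family. A filter on low counts left 15572 genes to be tested. Of the 4 members, 3 passed it and Asic3 did not.

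Control embryos were Nr2f2 f/f. Knockout (cKO) embryos were Wt1 CreER; Nr2f2 f/f, in which a tamoxifen-dependent Cre recombinase is driven by Wt1, a gene of gonadal progenitor cells. The dams of both genotypes received tamoxifen at E11.5 and E12.5 per the study's methods, and the floxed Nr2f2 allele was present in both groups. Controls carried no CreER. The floxed allele holds a LacZ cassette that is transcribed once Cre has cut it, and the deletion reaches part of the interstitial cells, so cKO testes are mosaic. Testes were taken at E14.5, and each library came from a pool of 3 whole testes, with 6 control and 6 cKO pools. Nr2f2 encodes NR2F2 (COUP-TFII), a nuclear receptor of interstitial cells. The study removed it to ask what it does in the interstitial cells from which fetal Leydig cells arise. No label says from how many litters the pools came, so p-values measure the spread between these pools.

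ASICs are sodium channels that open when the fluid outside the cell turns acid. They belong to the degenerin and epithelial sodium channel family and are best known from neurons. ASIC1, ASIC2 and ASIC3 subunits assemble into proton-gated trimers. ASIC4 does not form a proton-gated channel by itself, and has been described as lowering the amount of other ASIC subunits at the cell surface.

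Total counts ran from 7044531 to 59404778 per library. Levels are given as CPM, the counts of a gene scaled to the library's size. The targeted gene Nr2f2 ran from 162.5 to 185.9 CPM in the control pools, fell to between 50.2 and 119 CPM in the cKO pools, and changed by -1.21 ± 0.16 on the log2 scale (fit ± standard error, edgeR adjusted p = 0.000548). Xist, the RNA of the inactive X chromosome in XX cells, was at 304 to 891 CPM in 4 libraries, namely control 1 and cKO 3, 5 and 6. The 8 others had 5.15 to 7.68 CPM. The summed level of the ovarian supporting cell genes Foxl2, Fst and Irx3 went with Xist, at 3.67 to 7.41 CPM in those 8, 145 CPM in control 1 and 57.4 to 96.8 CPM in the 3 cKO libraries (0 of the 3 genes were called between genotypes by edgeR). These 4 libraries, labelled testes, thus held more RNA of genes of XX and ovarian cells than the label implies, and they make up 3 of 6 cKO but 1 of 6 control pools. Results on the members are therefore given with all 12 libraries and with those 8. Of the 15572 genes tested, 1266 (8.13%) were called at an adjusted p under 0.05, 510 (3.28%) higher and 756 (4.85%) lower in cKO testes. This count was 3106 without control replicate 1 and 816 without cKO replicate 4, so the shares set beside the lists hold for the 12 libraries together. An unadjusted p under 0.05 was found for 25.2% of the genes tested. DESeq2 called 1919 genes in all and limma-voom 1247. The groups did not overlap, with every cKO pool above every control, in 2.39% of tested genes, and with every cKO pool below in 3.13%.

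Asic4 (Entrez Gene 241118) lies on the plus strand of mm10 at chr1:75450510-75474340, and no other gene of the table overlaps this interval. GENCODE M21 gives its longest transcript 9 exons and 2667 bases. Asic4 had little RNA in control testes, with a lowest value of 1.59, a median of 2.33 and a highest of 2.59 CPM over 6 pools. In cKO testes the lowest value was 16.5, the median 21.4 and the highest 28.3 CPM. The lowest cKO pool thus held 6.38 times the CPM of the highest control pool. The mean was 2.22 ± 0.394 CPM for control and 21.7 ± 4.0 CPM for cKO testes (SD over 6 pools), a ratio of 9.79, and the fitted log2 fold change was 3.25 (standard error 0.15). Only 5 of the 15572 tested genes had a larger fitted rise. These are the values by which the gene was chosen.

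The control value rested on 333 counts over 6 libraries, from 11 in control replicate 6 to 95 in control replicate 3, and the cKO value on 4018 counts, from 142 in cKO replicate 5 to 1270 in cKO replicate 6. The relative spread between pools was alike in both genotypes, with a coefficient of variation of 17.7% in control and 18.4% in cKO testes. Among the 8 libraries with low Xist, Asic4 had 2.21 ± 0.439 CPM in 5 control pools and 22.8 ± 5.93 CPM in 3 cKO pools (SD). Among the libraries with high Xist it had 2.27 CPM in control replicate 1 and between 19.3 and 21.5 CPM in the 3 cKO pools. The values of both sets are among those by which Asic4 was chosen, so the split is a description and adds no support. The set with high Xist holds 1 control pool.

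**Figure D1:**
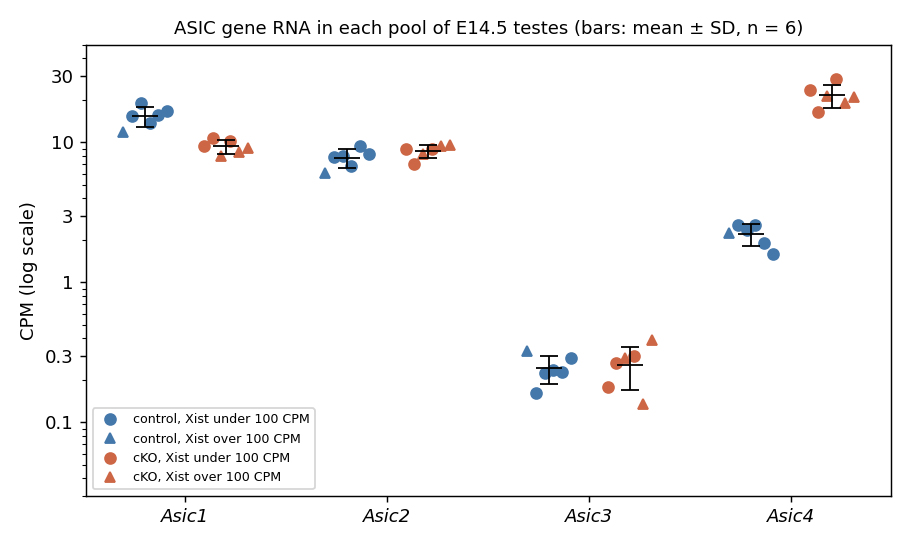
RNA of the 4 ASIC genes in each of 12 pools, in CPM on a log axis, with control pools in blue and cKO pools in orange. Triangles mark the 4 libraries with Xist over 100 CPM, and bars give the mean ± SD of 6 pools. Asic4 lies above 16 CPM in every cKO pool and under 3 CPM in every control pool, Asic1 is lower in every cKO pool than in any control, and the groups overlap for Asic2 and Asic3.

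Asic1 (Entrez Gene 11419, plus strand, mm10 chr15:99670718-99701130) encodes the main proton-gated subunit of neurons. It was the most abundant member in control testes, with a lowest value of 11.9, a median of 15.5 and a highest of 19.3 CPM. In cKO testes these values were 8.01, 9.32 and 10.8 CPM. None of the 6 cKO pools reached the lowest control. Asic1 thus fell in cKO testes, from a mean of 15.5 ± 2.54 to 9.38 ± 1.05 CPM (SD over 6 pools). The log2 fold change was -0.72 ± 0.12 (SE), its 95% interval ran from -0.97 to -0.46, and the quasi-likelihood test of edgeR gave an adjusted p of 0.002.

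The fall of Asic1 was also present in the 8 libraries with low Xist, where control pools had 16.2 ± 2.04 CPM (SD, n = 5) and cKO pools 10.2 ± 0.675 CPM (SD, n = 3) without overlap (log2 fold change -0.67, edgeR adjusted p = 0.0079). Control replicate 1, which has the most Xist, had the least Asic1 of the controls. The cKO pools with high Xist had between 8.01 and 9.14 CPM of Asic1, and those with low Xist between 9.49 and 10.8 CPM. With Xist level as a term in the fit, the log2 fold change of Asic1 was -0.61 (edgeR adjusted p = 0.00166).

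Asic2 (Entrez Gene 11418) lies on the minus strand of mm10 at chr11:80880163-81968396, over more than a megabase. Its subunit joins ASIC1 or ASIC3 in mixed trimers. The control pools ran from 6.03 to 9.41 CPM with a median of 7.98, and the cKO pools from 7.07 to 9.59 CPM with a median of 8.97. Most pools of both genotypes share the same range, and 2 cKO pools lay above every control. The fitted difference of 0.18 ± 0.12 (log2, SE) was within what the spread of the pools allows (95% interval from -0.07 to 0.44, edgeR adjusted p = 0.355). In the 8 libraries with low Xist it was 0.07 (edgeR adjusted p = 0.745). The interval leaves room for a rise of up to 0.44 on the log2 scale and excludes a change as large as that of Asic1. In the table, 1700071K01Rik on the same strand and 5530401A14Rik on the opposite strand lie within the Asic2 interval, and both had 0 counts in all 12 libraries.

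Asic3 (Entrez Gene 171209, plus strand, mm10 chr5:24413451-24417834) encodes a subunit known from sensory neurons. It was close to the limit of detection, with 35 counts over 6 control and 53 counts over 6 cKO libraries. The CPM ran from 0.163 to 0.325 in control pools with a median of 0.232, and from 0.136 to 0.385 in cKO pools with a median of 0.276. The ranges overlap over most of their width. Without the filter on low counts, edgeR put the log2 fold change at 0.19 ± 0.30 (SE, adjusted p = 0.747), so a difference was not detectable at this depth. The ratio of mean CPM was 0.08 on the log2 scale with all libraries and 0.12 in the 8 with low Xist.

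Of the 2 members that were both tested and not chosen by their value, 1 was called, Asic1. This is too few genes for a share to be set against the 8.13% of all tested genes.

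Levels of different genes were compared as RPKM, here CPM divided by the length in kilobases of the longest GENCODE M21 transcript. In control testes the order was Asic1 (3.76 ± 0.617), Asic2 (2.25 ± 0.342), Asic4 (0.832 ± 0.148) and Asic3 (0.111 ± 0.0254 RPKM, SD, n = 6 pools each). Neighbours in this order did not overlap between pools, since the lowest Asic1 value was 2.89 and the highest Asic2 value 2.74 RPKM. Asic1 was above Asic2 in 6 of 6 control pools.

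In cKO testes the order was Asic4 (8.15 ± 1.5), Asic2 (2.54 ± 0.274), Asic1 (2.28 ± 0.255) and Asic3 (0.117 ± 0.0402 RPKM). Asic4 was above Asic1 in 6 of 6 cKO pools and in 0 of 6 control pools. Asic1 and Asic2 did not differ beyond their spread in cKO testes, with ranges of 1.95 to 2.64 and 2.06 to 2.79 RPKM, and Asic1 was above Asic2 in 1 of 6 pools. In CPM, before division by length, the cKO mean was 9.38 for Asic1 and 8.73 for Asic2. The order of these 2 genes in cKO testes thus turns on the transcript length used. Asic4 made up 12.2% ± 2.89 of the summed RPKM of the 4 genes in control testes and 61.9% ± 3.86 in cKO testes (SD, n = 6). The shares of Asic1 (53.9% ± 2.96 and 17.6% ± 3.15) and Asic2 (32.4% ± 2.71 and 19.5% ± 2.21) are of a sum that includes Asic4, so they also move with Asic4 and do not measure the change of either gene alone.

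The sum of the 4 genes was 6.96 ± 0.829 RPKM in control and 13.1 ± 1.65 RPKM in cKO testes, and no cKO pool was as low as the highest control pool at 8.03 RPKM. The larger sum in cKO testes comes from Asic4, by which the set was chosen. Placed among 23662 genes with a transcript length, the mean RPKM of Asic4 was above 45.0% of genes in control and above 67.9% in cKO testes. For Asic1 these values were 57.3% and 52.4%, and for Asic3 31.8% and 31.7%.

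**Figure D2:**
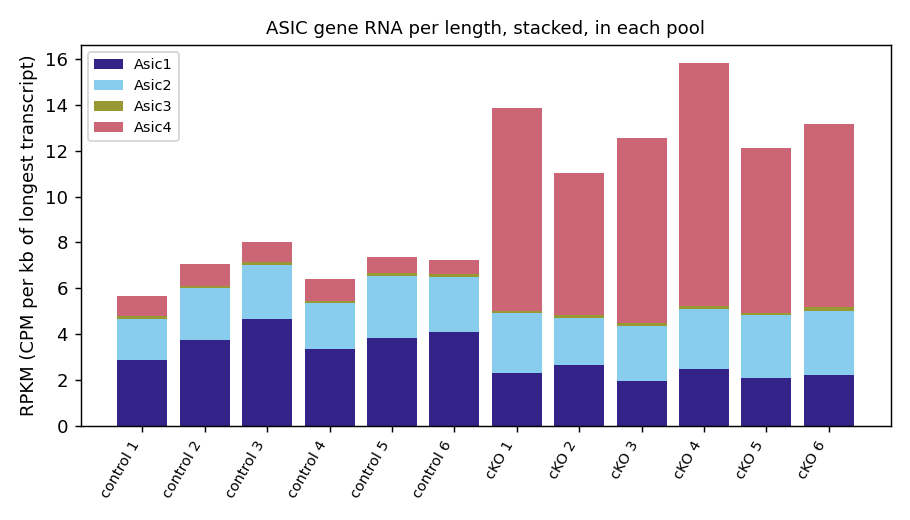
Stacked RPKM (CPM per kilobase of the longest transcript) of Asic1, Asic2, Asic3 and Asic4 in each control and cKO pool. Asic4 is between 6.20 and 10.6 RPKM in the cKO pools and at most 0.971 RPKM in the control pools, and Asic3 is barely visible in all 12.

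It was next asked whether the genes around Asic4 changed with it. The table has 10 other genes within 100 kb of Asic4, of which 9 were tested, and they were chosen by position alone. Of these 9, 1 was called higher and 0 lower by edgeR, against 3.28% and 4.85% over all genes. DESeq2 and limma-voom also called 1 gene, and 3 had an unadjusted p under 0.05 by edgeR, against 25.2% of all genes. With 9 genes, these counts are too few to be set against those shares. Their median log2 fold change was 0.20, against 0.003 for all genes tested.

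The called neighbour was Speg, which encodes a kinase of striated muscle and lies 18.2 kb before Asic4 on the same strand. Speg had between 25.2 and 41.4 CPM in control and between 39.6 and 49.9 CPM in cKO pools, with 4 of 6 cKO pools above every control (log2 fold change 0.44 ± 0.11, SE, edgeR adjusted p = 0.0228). Its call was lost without control replicate 2, cKO replicate 4 or cKO replicate 6, with an adjusted p of up to 0.0544. The nearest gene on the same strand before Asic4 is Gmppa, a regulator of mannose metabolism 7.33 kb away, at 32.8 ± 1.65 CPM in control testes and 32.5 ± 1.34 CPM with the knockout (log2 fold change -0.01, edgeR adjusted p = 0.907).

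Chpf, a chondroitin synthesis gene, ends 0.229 kb past the end of Asic4 on the opposite strand, and its reads were separated from those of Asic4 by strand. Chpf differed by 0.22 ± 0.15 (log2, SE, edgeR adjusted p = 0.358). Tmem198, at 0.865 CPM for control and 1.32 CPM for cKO testes, differed by 0.55 ± 0.26 (log2, SE, edgeR adjusted p = 0.204). Obsl1, Inha (the inhibin alpha subunit of Sertoli cells), Stk11ip, the bicarbonate exchanger gene Slc4a3 and the muscle filament gene Des had values between 0.03 and 0.28, none past the threshold. Gm15179 was not tested, with 20 counts in all 12 libraries. No tested neighbour came near the 3.25 of Asic4.

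**Figure D3:**
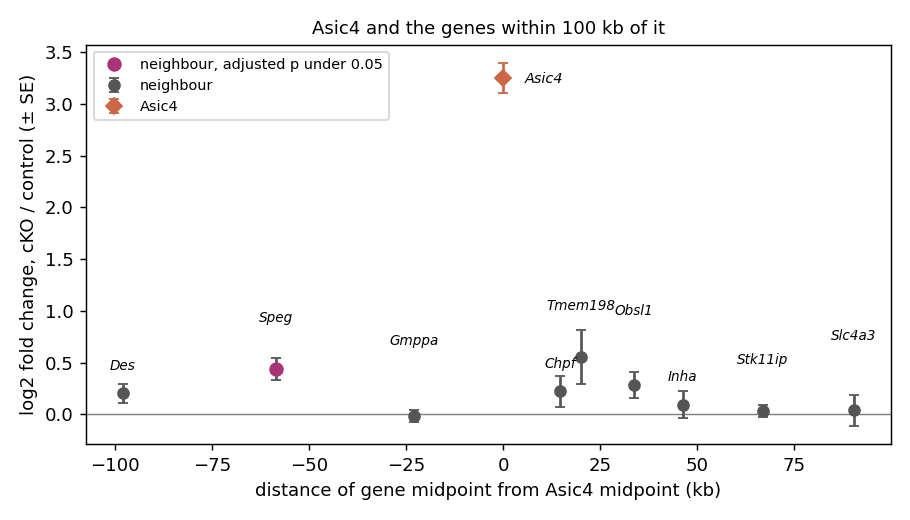
Log2 fold change (cKO over control, ± standard error) of Asic4 and of 9 tested genes within 100 kb, against the distance of each gene's midpoint from that of Asic4. Asic4 is at 3.25, and the neighbours lie between -0.01 and 0.55, with Speg the called gene.

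NR2F2 binds direct repeats of the sequence AGGTCA. The RefSeq promoter table for GRCm38.p6 (from 250 bases before to 50 bases after a start) holds windows for Asic1, Asic2 and Asic3. Asic4 has no entry. AGGTCA, or TGACCT on the other strand, occurs in 5340 of 32851 windows (16.3%). The window listed for Asic1, at chr15:99691974-99692273, is at an internal start within the gene's interval and not at its first base. It holds 1 copy, 237 bases before that internal start, and the windows of Asic2 (both starts) and Asic3 hold 0. A single copy is not a direct repeat. The copy is shown because Asic1 is the member that fell, in capitals within bases 99691975 to 99692004 of the plus strand of chromosome 15, 5′ to 3′:
Asic1: gggcagcaactgAGGTCAtcctggcagtga
The match is a description of these letters. Binding of NR2F2 was not analysed here.

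The pools also differ in how much Nr2f2 remained, from 50.2 CPM in cKO replicate 5 to 119 CPM in cKO replicate 2. It was therefore asked whether, within a genotype, Asic4 followed Nr2f2, the interstitial gene Tcf21, the Leydig cell gene Cyp17a1 or Xist. These relations do not use the difference by which Asic4 was chosen. In cKO pools the correlation of Asic4 with Nr2f2 in log2 CPM was -0.20 (Pearson's r, n = 6, exact permutation p = 0.758) with a rank correlation of 0.09 (Spearman's rho, exact permutation p = 0.919). Without the 2 pools farthest from the median of Nr2f2, r was 0.57.

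Over the 8 relations computed, 4 in each genotype, r ran from -0.47 for Tcf21 to 0.53 for Nr2f2, both in control pools, and the smallest raw exact permutation p was 0.175, for the rank correlation with Nr2f2 in control pools (rho 0.66). No relation passed after adjustment (every adjusted p of r was 0.939, and of rho 1). With 6 pools only a strong relation could pass. Leaving out the 2 farthest pools, which leaves 4, moved r from -0.05 to -0.86 for Cyp17a1 in cKO pools and from 0.09 to -0.97 for Xist in control pools. These values thus depend on which pools are included. The cKO pool with the most Nr2f2, replicate 2, had the least Asic4 of the cKO pools, but replicate 5, with the least Nr2f2, had the second lowest Asic4.

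**Figure D4:**
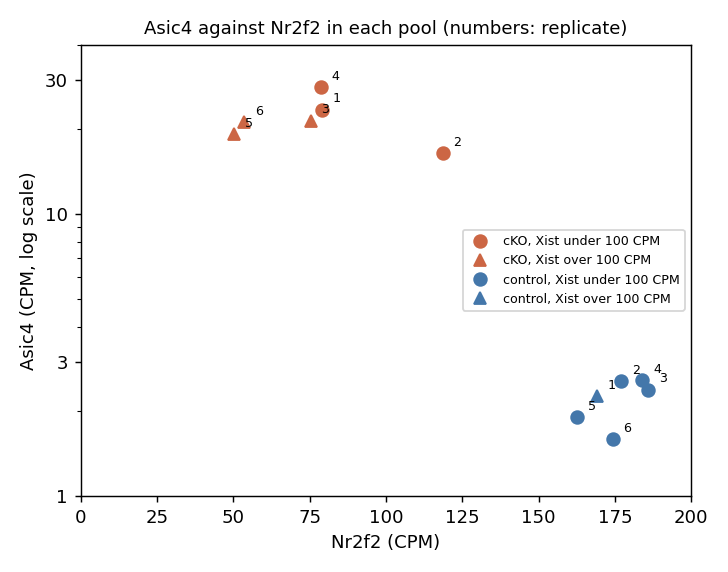
Asic4 (CPM, log axis) against Nr2f2 (CPM) in each pool, with the replicate number beside each point and triangles for libraries with Xist over 100 CPM. The genotypes form separate clusters, and within neither does Asic4 move clearly with Nr2f2 (r = -0.20 in cKO and 0.53 in control pools).

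The genes whose pattern was most like that of Asic4 were sought among the 14261 tested genes that averaged 1 CPM or more, by Pearson's r of log2 CPM over 12 pools. The points share the difference between genotypes, so these r values are a description. The 5 highest were Myh8, a perinatal myosin heavy chain (r = 0.991), the T-box factor gene Tbx18 (0.987), the muscle gene Dusp27 (0.987), Myo1a, an unconventional myosin (0.986), and Palmd, which encodes palmdelphin (0.985). Each was higher in every cKO pool than in any control. Myh8 went from 3.76 to 5.88 CPM across control pools to 16.9 to 25.1 CPM across cKO pools, and Tbx18 from 0.847 to 1.16 CPM to 6.65 to 8.77 CPM.

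Once the mean of each genotype was removed, r with Asic4 was 0.89 for Myo1a, 0.72 for Dusp27, 0.69 for Myh8, 0.60 for Palmd and 0.23 for Tbx18. The genes were picked over the same pools, so these values are partly fixed by that choice too. The 5 lowest r over 12 pools were for Vdr, the vitamin D receptor (-0.983), Palld, which encodes the actin-binding palladin (-0.972), Exoc3l4 (-0.972), Kcnip3, a calcium-binding protein of potassium channels (-0.969), and Ptgis, the prostacyclin synthase (-0.968). Mean Vdr was 16.2 CPM in control and 7.27 CPM in cKO pools. Among the members, r with Asic4 was -0.89 for Asic1 and 0.43 for Asic2, and with the genotype means removed -0.17 and -0.06.

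Genes that act with or beside ASICs were then examined as lists. In the rest of the degenerin family, only Scnn1a, the alpha subunit of the epithelial sodium channel, passed the filter, at 2.15 ± 0.695 CPM for control and 2.98 ± 0.386 CPM for cKO testes (log2 fold change 0.43 ± 0.20, SE, edgeR adjusted p = 0.2). Scnn1a was not called by edgeR and its unadjusted p was not under 0.05, and DESeq2 and limma-voom called 0 genes of the list. With 1 gene tested, no share can be set against the 8.13% of all genes. Scnn1b had 100 counts over all libraries and Scnn1g 4. Asic5 had 19 counts each in control replicate 1 and cKO replicate 3, both libraries with high Xist (0.514 and 0.546 CPM), and at most 2 counts in each of the 10 other libraries.

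Of 12 genes for proteins reported to bind ASIC subunits, 11 were tested, and edgeR called 0 of them. At the 8.13% called over all genes, 0 of 11 is near the background. Their median log2 fold change was 0.07, with values from -0.27 to 0.30, and 4 had an unadjusted p under 0.05, against 25.2% of all genes. DESeq2 called 1, Akap5, an anchor of protein kinase A, with 17.6 to 21.8 CPM in control and 15.2 to 17.8 CPM in cKO pools (log2 fold change -0.26 ± 0.08, SE, edgeR adjusted p = 0.0545), and limma-voom called 0. The scaffold gene Pick1, whose protein binds ASIC1 and ASIC2, was at 27.5 ± 3.69 CPM in control testes and 30.6 ± 1.71 CPM with the knockout (log2 fold change 0.15, edgeR adjusted p = 0.297).

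Of 12 genes for other proton sensors, 6 were tested. The median of their log2 fold changes was 0.11, and 1 was called higher and 0 lower, against 3.28% and 4.85% of all genes. With 6 genes, 1 call is no result about the list. Kcnk3 encodes TASK-1, a potassium channel closed by acid. It had between 23.3 and 47.2 CPM in control and between 40.6 and 78.1 CPM in cKO pools, with 4 of 6 cKO pools above every control (log2 fold change 0.63 ± 0.17, SE, edgeR adjusted p = 0.0347). When libraries were left out in turn, 7 of 12 fits lost its call (edgeR adjusted p up to 0.0792), namely those without control replicate 2, 3 or 6 or without cKO replicate 1, 2, 3 or 4. Pacc1, the gene of the proton-activated chloride channel, differed by -0.08 on the log2 scale (edgeR adjusted p = 0.537).

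Of 39 genes of pH regulation (sodium-proton exchangers, bicarbonate transporters, carbonic anhydrases, lactate transporters and the proton channel gene Hvcn1), 33 were tested. Of these, 1 was called higher and 2 lower (9.09%, against 8.13% of all genes), and the median change on the log2 scale was 0.03. An unadjusted p under 0.05 was found for 8 of the 33, near the 25.2% of all genes. DESeq2 and limma-voom each called 4, the same 3 and Slc9a7, a sodium-proton exchanger gene with 5.64 to 6.60 CPM in control and 6.78 to 7.68 CPM in cKO pools (log2 fold change 0.29 ± 0.09, SE, edgeR adjusted p = 0.054). Hvcn1 rose from between 12.8 and 15.5 CPM to between 16.3 and 21.3 CPM, and the groups did not overlap (log2 fold change 0.46 ± 0.08, SE, edgeR adjusted p = 0.00302). Hvcn1 is known from leukocytes. Of 3 macrophage markers examined 2 rose as well, Csf1r and Cx3cr1, against 3.28% of all genes, and Adgre1 did not pass (edgeR adjusted p = 0.0535). Their summed level was 22.9 to 28.7 CPM in control and 34.2 to 43.7 CPM in cKO pools, and the part of macrophages in the rise of Hvcn1 was not tested.

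The carbonic anhydrase genes Car13 and Car11 fell. Car13 went from between 3.63 and 5.66 CPM to between 2.04 and 3.11 CPM (log2 fold change -0.71, edgeR adjusted p = 0.00813), and Car11, which encodes a family member without enzyme activity, from between 3.77 and 5.74 CPM to between 2.71 and 3.55 CPM (log2 fold change -0.55, edgeR adjusted p = 0.0237). The groups did not overlap for either gene. The call of Car11 was lost without control replicate 6 or cKO replicate 1, with an adjusted p of up to 0.0571, and in the 8 libraries with low Xist (edgeR adjusted p = 0.0676).

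**Figure D5:**
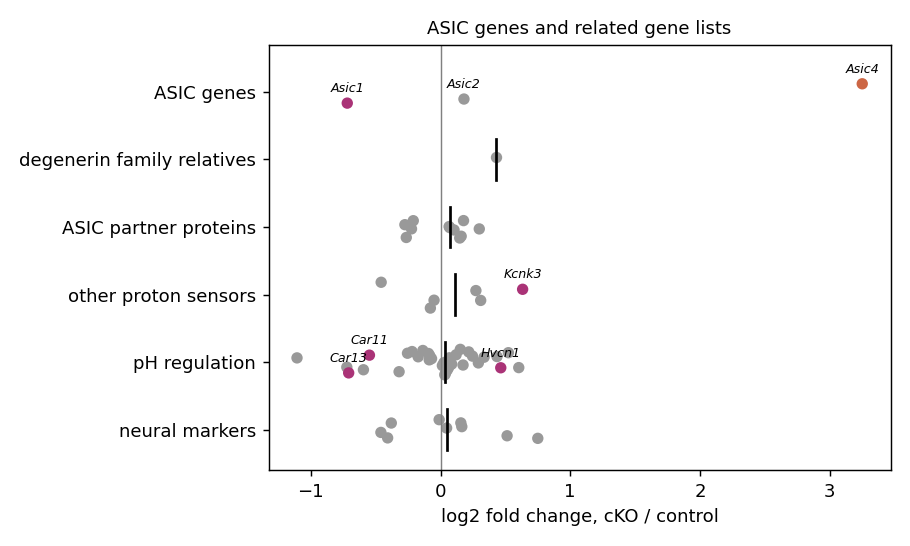
Log2 fold change (cKO over control) of the tested ASIC genes and of the tested genes of 5 related lists, with called genes in purple and named, the list's median as a black line, and Asic4 in orange because its value chose it. Asic4 is at 3.25, and every listed gene lies between -1.11 and 0.75.

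Since ASICs are best known from neurons, markers of neurons and glia were examined beside the members. Of 12 such genes 9 were tested, and edgeR called 0. An unadjusted p under 0.05 by edgeR was found for 3 of the 9, against 25.2% of all genes. While limma-voom called 0, DESeq2, which called 1919 genes in all, called 1, the secretory granule gene Chga. The share called by edgeR over all genes was 8.13%, so 0 of 9 is near the background too. Their summed level was between 40.2 and 50.0 CPM in control and between 39.7 and 52.2 CPM in cKO pools, and the ranges overlap. The noradrenaline synthesis gene Dbh, the synaptic gene Snap25 and the neuronal gene Elavl3 had means under 1 CPM. The fitted changes went both ways, from -0.46 for the neuronal gene Stmn2 (edgeR adjusted p = 0.145) to 0.75 for Chga (0.102). The pan-neuronal gene Tubb3 stood at 9.96 ± 1.23 CPM in control testes and 9.87 ± 2.77 CPM with the knockout, where 4 pools lay above every control and 2 below.

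Markers of other testis cells were summed in each pool. The sum of 4 interstitial genes, Nr2f2 among them, was between 855 and 1066 CPM in control and between 505 and 862 CPM in cKO pools, with 2 of 4 called lower, and that of 4 fetal Leydig cell genes between 1439 and 2769 and between 748 and 1591 CPM, with 4 of 4 called lower, where 4.85% of all genes were. Asic1 fell in the same pools, and the part of these cells in its fall was not tested. In RNA of whole testes, fewer cells of a type and less RNA per cell cannot be told apart. The lowest interstitial and Leydig sums were in libraries with high Xist. The 3 such cKO pools had 505 to 675 CPM (interstitial) and 748 to 1391 CPM (Leydig). The lowest control sums, 855 and 1439 CPM, were those of control replicate 1. The 8 libraries with low Xist, of both genotypes, ran from 728 to 1066 and from 1182 to 2769 CPM. How much of the difference in these sums goes with Xist level was not tested. The sums of 3 Sertoli cell genes (386 to 820 CPM in control, 444 to 813 CPM in cKO pools), 3 germ cell genes (805 to 1657 and 1176 to 1533 CPM) and 2 endothelial genes (186 to 252 and 182 to 235 CPM) overlapped between genotypes, with 0 genes called by edgeR in these 3 lists. Adrenal-like markers summed to between 13 and 24.2 CPM in control and between 20.1 and 24.1 CPM in cKO pools (1 of 4 called higher, against 3.28% of all genes). Erythroid markers summed to between 1033 and 1509 CPM in control and between 708 and 1067 CPM in cKO pools (1 of 4 called lower, against 4.85%). For mesonephric epithelium the sums were between 39.4 and 81.7 and between 35.5 and 62.3 CPM (1 of 4 called higher). The 81.7 CPM was that of control replicate 1. Most of the mesonephric sum was Emx2, at a mean of 44.9 CPM in control and 40.3 CPM in cKO pools. The called gene, Pax8, was at 3.79 and 5.27 CPM. With 4 genes in each of these lists, 1 call is no result about the list.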

How the data were processed

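RNA-seq libraries of 12 pools of E14.5 testes were grouped by the genotype in their titles. Per the submitters' processing notes and the study's methods, the authors trimmed read pairs with Trim Galore 0.6.7, aligned them to mm10 with STAR 2.5 and counted them by strand on RefSeq Curated genes with featureCounts (Subread 1.5.0-p1). The deposited values are these raw counts per gene.

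Here counts were tested in R 4.3.3 with edgeR 4.0.16 (TMM, filterByExpr, glmQLFit, glmQLFTest, no covariate), with Benjamini-Hochberg adjustment over all 15572 genes and a threshold of 0.05. The filter asked for at least 10 counts, scaled to library size, in enough libraries, and for 15 counts in total. CPM use the TMM-scaled library sizes of that fit, and log2 CPM a prior count of 2. Standard errors are the log2 fold change over the square root of F. DESeq2 1.42.0 and limma 3.58.1 (voom), other scalings and filters, a replicate block, a term for Xist over 100 CPM, the 8 libraries under it, and leaving out each library were tried as alternatives. Simulated counts with 200 changed genes among 15572 tested the fit for cKO against control, and edgeR recovered 182 (86 of those changed by 1 and 96 of those changed by 2 on the log2 scale, 100 each), with 9 false calls among 191.

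The members and the gene lists were chosen with earlier results of these data known. Named genes are the members, Nr2f2, Xist, Tcf21, Cyp17a1, genes called in a list (up to 5 a direction), all neighbours of Asic4 within 100 kb, and the 5 genes most and least like Asic4. Scnn1a, Scnn1b, Scnn1g, Asic5, Akap5, Pick1, Pacc1 and the cell type markers beside a count were named after their values were seen.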

Additional observations from a re-analysis of the deposited data

Results flagged for a closer look

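Among 34 groups of 6 pools examined (17 genes in each genotype), 3 held a pool that stood apart from the other 5, where chance alone gives about 1 in 20. Xist was 891 CPM in control replicate 1, against 5.15 to 6.40 CPM in the other controls. Slc4a3, a neighbour of Asic4, was 68.0 CPM in control replicate 1, against 35.4 to 41.0 CPM in the other controls. Chpf, the nearest neighbour of Asic4, was 42.1 CPM in cKO replicate 5, against 49.9 to 54.0 CPM in the other cKO pools. No pool stood apart in this way for Asic1, Asic2, Asic3 or Asic4.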

How the results depend on the processing

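Asic1 kept its fall and its call in every alternative run. Its log2 fold change was -0.61 with Xist level as a term, and with 1 library left out from -0.79 (control 1 removed) to -0.64 (control 3 removed). Asic4 stayed between 3.16 and 3.32 with 1 library left out, and Asic2 was called in none of the alternatives (0.11 to 0.25 with 1 library left out). The log2 ratio for Asic3, from few counts, ranged from -0.071 without cKO replicate 6 to 0.21 without cKO replicate 5.

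The count of called genes was 1919 with DESeq2, and with 1 library left out from 816 (cKO 4 removed) to 3106 (control 1 removed). Genes of pH regulation called higher numbered 2 with a filter of 1 CPM in 6 libraries, with DESeq2 and with limma-voom, and from 1 to 4 with 1 library left out. Those called lower were 1 with the replicate block and 1 in the 8 libraries with low Xist, and from 1 to 4 with 1 library left out, the highest count again without control replicate 1. ASIC partner genes called lower were 1 with DESeq2, 2 with Xist level as a term and 1 in the 8 libraries, and higher or lower from 0 to 1 with 1 library left out. Neural markers called higher were 1 with DESeq2 and 1 with Xist level as a term. Other proton sensors called higher went from 0 to 1, and neighbours of Asic4 from 0 to 2, with 1 library left out. Why these counts moved was not tested.

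Values near 0 changed sign. Slc4a3 was -0.0897 with Xist level as a term and from -0.0059 to 0.22 with 1 library left out, Gmppa from -0.033 to 0.0059, and Inha from -0.0016 to 0.15. Xist, at 0.44 with all libraries, was -0.32 with its own level as a term and ran from -0.029 to 5.22 with 1 library left out, the highest without control replicate 1, where it was called (edgeR adjusted p = 0.0129). The r of Asic4 with Xist in control pools was -0.0802 in the 5 pools with low Xist.

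Replicate numbers were not shown to pair the pools, since same-numbered pools correlated between -0.33 and 0.24 in their deviations from the group means and 0 of 6 correlated best with their own number. With the replicate block, 931 genes were called, and the log2 fold changes were -0.71 for Asic1 (edgeR adjusted p = 0.0168), 0.18 for Asic2 and 3.25 for Asic4. Car11 lost its call with the block (-0.54, edgeR adjusted p = 0.0677). Depth limits Asic3 and Asic5, whose few counts could not show a moderate difference.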
